A study of Equus caballus with 6 samples.

Results

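This report follows the genes of major histocompatibility complex (MHC) antigen presentation in equine lamellar hoof tissue, the layered skin that binds the hoof wall to the bone beneath, in laminitis, in which that bond fails, and in the normal state. The members are B2M, CD74, TAP1, BOLA-DRA, BOLA-DMA and BOLA-DMB, and each probe set whose single gene symbol in the platform annotation is one of these was kept apart. Among the 9155 genes with such a probe set on the array, 5 are members. The rule found 7 of the 24016 non-control probe sets: 3 for B2M and 1 each for TAP1, BOLA-DRA, BOLA-DMA and BOLA-DMB. No probe set in the annotation table carried CD74 as its single symbol, so CD74, the invariant chain that escorts class II molecules, was not analysed here.

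The samples are right-foot lamellar tissue, 3 samples with laminitis (replicates 1, 3 and 4) and 3 normal samples (replicates 2, 3 and 4), each hybridised to 1 Affymetrix bovine array. The labels give no age, breed or treatment, do not state how laminitis arose, and leave it unstated whether each sample is a different animal. The p-values therefore cover the spread among these 6 arrays alone, and that spread may be technical. The bovine array was read with horse RNA, and MHC sequences differ between the species, so a dim probe set can mean a poor match as well as little transcript, and a higher signal from one probe set than from another is not read as more transcript. Ranks on the array, the choice of a gene's brightest probe set and sums over markers describe signal only. In the RefSeq gene table of the horse assembly TB-T2T, B2M, CD74, TAP1 and DRA were matched by name, and DMA and DMB were not matched.

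Separate routes bring peptides to T cells. In the class I route, which nearly all nucleated cells use, the proteasome cuts cytosolic proteins, the TAP transporter moves the peptides into the endoplasmic reticulum, and a heavy chain paired with beta-2-microglobulin carries them to the surface for CD8 T cells. In the class II route, used mainly by dendritic cells, macrophages and B cells and induced in other cells by interferon-gamma, an alpha and a beta chain assemble around the invariant chain, endosomal cathepsins trim that chain, and the DM heterodimer exchanges the remaining fragment for an antigen peptide. In skin the resident class II cells are chiefly Langerhans cells and dermal dendritic cells and macrophages.

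The medians of the 6 arrays lay between 86.7 and 96.6 on the deposited linear intensity scale, and the number of arrays limits the precision. Correlations between arrays ran from 0.805 to 0.878 over the tested probe sets (log2 values), the lowest being that of laminitis replicate 1 with normal replicate 3. Of 9 measured keratinocyte genes 6, including KRT5 and KRT14, lay above the array median on all 6 arrays, by the brightest probe set of each. So did 7 of 8 measured fibroblast genes and 9 of 15 T and NK cell genes. The keratinocyte gene PERP was above it on no array. Among all 24016 non-control probe sets, 8468 lay above the median on all 6 arrays, and taking the brightest probe set can raise such counts. The counts therefore describe signal and do not identify the tissue. A probe set was tested where it exceeded its own array's median on at least 3 of the 6 arrays. That left 12519 probe sets, among them 5 of the 7 members, and limma with Benjamini-Hochberg adjustment at 0.05 called 0 of them higher (0% of those tested) and 0 lower in laminitis (0%). At an unadjusted limma p under 0.05 there were 604 higher (4.82%) and 622 lower (4.97%).

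None of the 5 tested member probe sets passed, and 6 of all 7 had a negative log2 difference, laminitis minus normal. The class II alpha chain BOLA-DRA and a dim probe set of B2M lay lower on all laminitis arrays than on any normal array, and the peptide-loading chain BOLA-DMA lay higher. Over all tested probe sets, 8.92% kept the groups apart with laminitis below and 7.89% with laminitis above. Of the 5 tested members 1 did so in each direction, BOLA-DRA below and BOLA-DMA above. The median log2 difference over the 5 tested members was -0.52, beside -0.056 over all tested probe sets, of which 56.3% were negative.

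**Figure D1:**
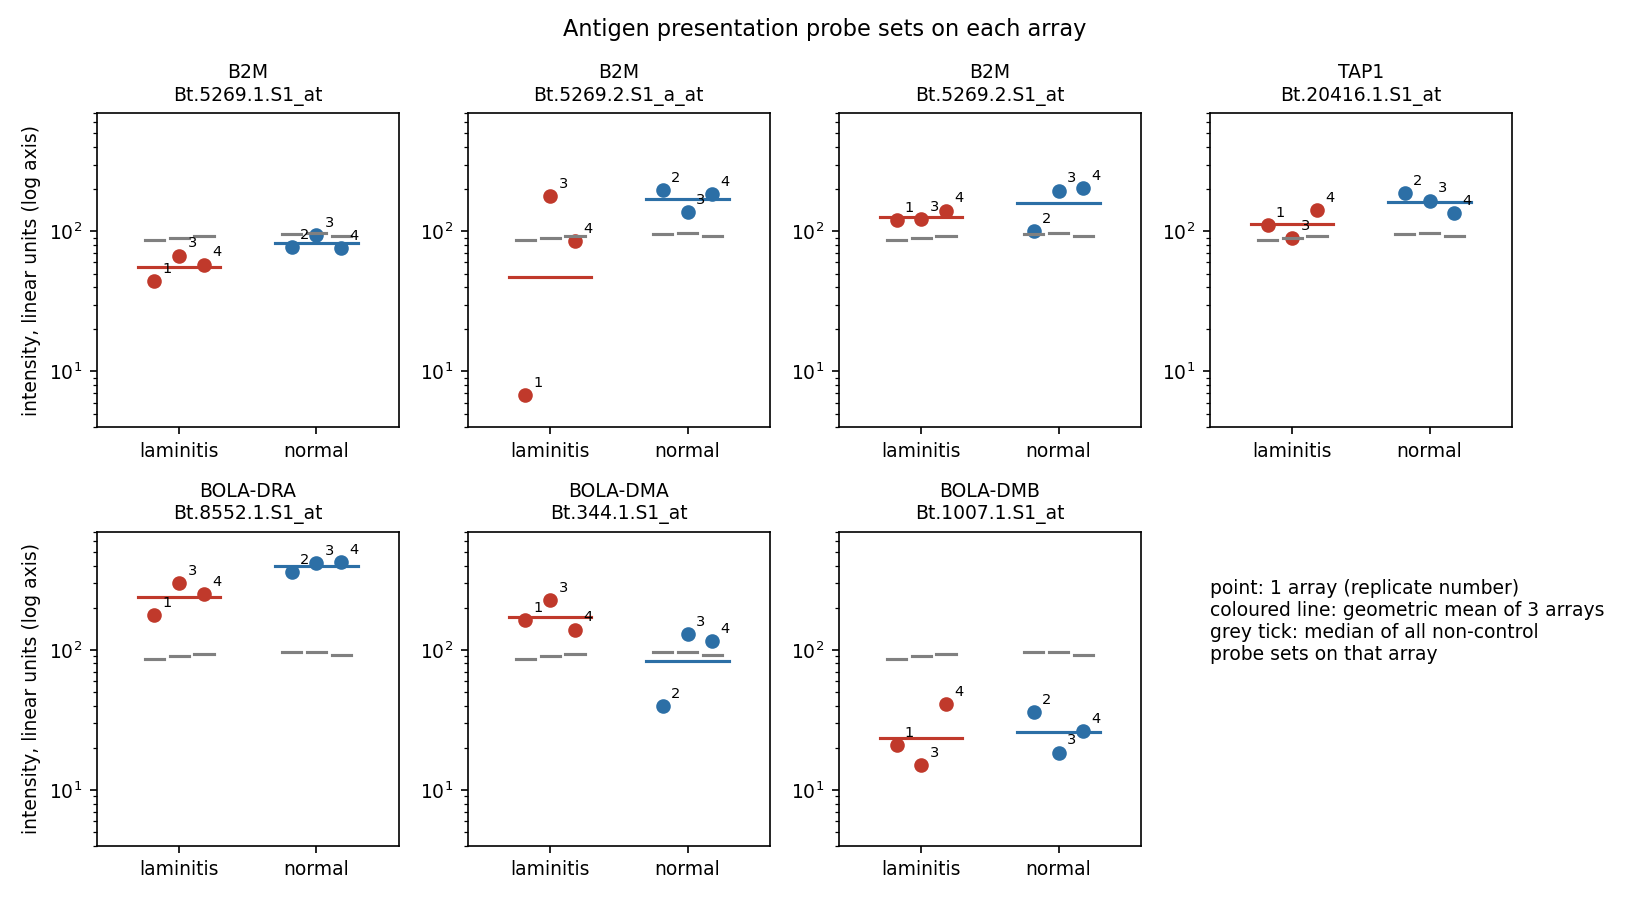
Intensity of each of the 7 member probe sets on each array (linear units on a log axis), laminitis to the left of normal; points carry the replicate number, coloured lines are geometric means of 3 arrays, and grey ticks are the array medians. BOLA-DRA lies between 176 and 299.7 in laminitis and between 360 and 421 in normal tissue, and the _a_at probe set of B2M reads 6.74 on laminitis replicate 1.

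BOLA-DRA encodes the alpha chain of the DR class II molecule, which pairs with a DRB chain to hold peptides for CD4 T cells. Its probe set read 176, 299.7 and 251 in laminitis replicates 1, 3 and 4, against 360, 416 and 421 in normal replicates 2, 3 and 4 (linear intensity). The groups did not overlap, and the normal arrays were tight while laminitis replicate 1 was the lowest of all. In means the intensity was 242 ± 62.1 in laminitis and 399 ± 34.0 in normal tissue (SD, n = 3 each). The log2 difference was -0.75 ± 0.25 (SE), or 1.68-fold lower in laminitis by geometric means, with a 95% interval from -1.33 to -0.17. The unadjusted limma p was 0.0189 and the limma adjusted p was 0.45, so the difference did not pass over all probe sets. With 1 array left out it ranged from -0.92 without laminitis replicate 3 to -0.54 without laminitis replicate 1. Among all non-control probe sets its median percentile was 81.4 on the laminitis arrays and 91.5 on the normal arrays.

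BOLA-DMA encodes the alpha chain of DM, the endosomal catalyst of class II peptide exchange. Its probe set read 163, 227 and 139 in laminitis replicates 1, 3 and 4, against 39.7, 129 and 115 in normal replicates 2, 3 and 4. The groups did not overlap, but the lowest laminitis array exceeded the highest normal array by little, and normal replicate 2 was far below the other normal arrays. The log2 difference was 1.04 ± 0.47 (SE, n = 3 per group), with a 95% interval from -0.07 to 2.15 and a limma adjusted p of 0.537. Without normal replicate 2 the difference was 0.50, and without normal replicate 3 it was 1.35. Adding 64 to every intensity before taking log2 gave 0.63.

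BOLA-DMB encodes the beta chain that completes DM, and its probe set was dim everywhere. It read 20.8, 15.0 and 41.1 in laminitis replicates 1, 3 and 4, against 35.8, 18.5 and 26.2 in normal replicates 2, 3 and 4. No array placed it above the array median, the groups overlapped fully, and it was not tested. The log2 difference fitted without the filter was -0.15 ± 0.45 (SE), with a 95% interval from -1.23 to 0.94, and its sign depended on which arrays were used. Whether both chains of DM differed alike could not be read from so dim a signal.

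B2M encodes beta-2-microglobulin, the light chain that every classical class I molecule needs to reach the surface. Its 3 probe sets gave unlike readings: a dim one built on the bovine RefSeq transcript, and a pair built on another bovine sequence, whose IDs end in _a_at and _at. In the Affymetrix naming scheme, the suffix _a_at marks probes shared by alternative transcripts of a gene.

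The dim B2M probe set read 43.9, 67.3 and 57.8 in laminitis replicates 1, 3 and 4, against 77.4, 93.7 and 76.0 in normal replicates 2, 3 and 4. Laminitis was lower with no overlap, but all 6 values were under the array medians and the probe set was not tested. Fitted without the filter, its log2 difference was -0.56 ± 0.26 (SE), with a 95% interval from -1.18 to 0.055.

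The _a_at probe set of B2M read 6.74, 179 and 85.5 in laminitis replicates 1, 3 and 4, against 196, 137 and 185 in normal replicates 2, 3 and 4. The laminitis arrays spanned 26.5-fold and overlapped the normal range, in which the spread was 1.43-fold. Its log2 difference of -1.86 ± 1.10 (SE, limma adjusted p 0.621) rested on laminitis replicate 1: without that array it was -0.46, and without laminitis replicate 3 it was -2.83.

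The _at partner of that probe set, from the same bovine sequence, read 120.4, 122 and 140.4 in laminitis replicates 1, 3 and 4. In normal replicates 2, 3 and 4 it read 100.2, 195 and 202. Here laminitis replicate 1 was close to the other laminitis arrays, and normal replicate 2 was the lowest array. The log2 difference was -0.31 ± 0.31 (SE), with a 95% interval from -1.04 to 0.41 and a limma adjusted p of 0.763. All 3 probe sets gave a negative difference in every setting tried, between -2.83 and -0.13. In the fit as reported all 3 of their 95% intervals crossed 0, and none of them passed in any setting.

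TAP1 encodes a subunit of the peptide transporter of the endoplasmic reticulum. Its probe set read 110.8, 89.5 and 142 in laminitis replicates 1, 3 and 4, against 187, 165 and 134 in normal replicates 2, 3 and 4. The groups overlapped only through laminitis replicate 4, which lay just above normal replicate 4. The mean was 114 ± 26.5 in laminitis and 162 ± 26.7 in normal tissue (SD, n = 3 each). The log2 difference was -0.52 ± 0.25 (SE), with a 95% interval from -1.11 to 0.065 and a limma adjusted p of 0.556. It stayed negative with 1 array left out, from -0.69 without laminitis replicate 4 to -0.36 without laminitis replicate 3.

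**Figure D2:**
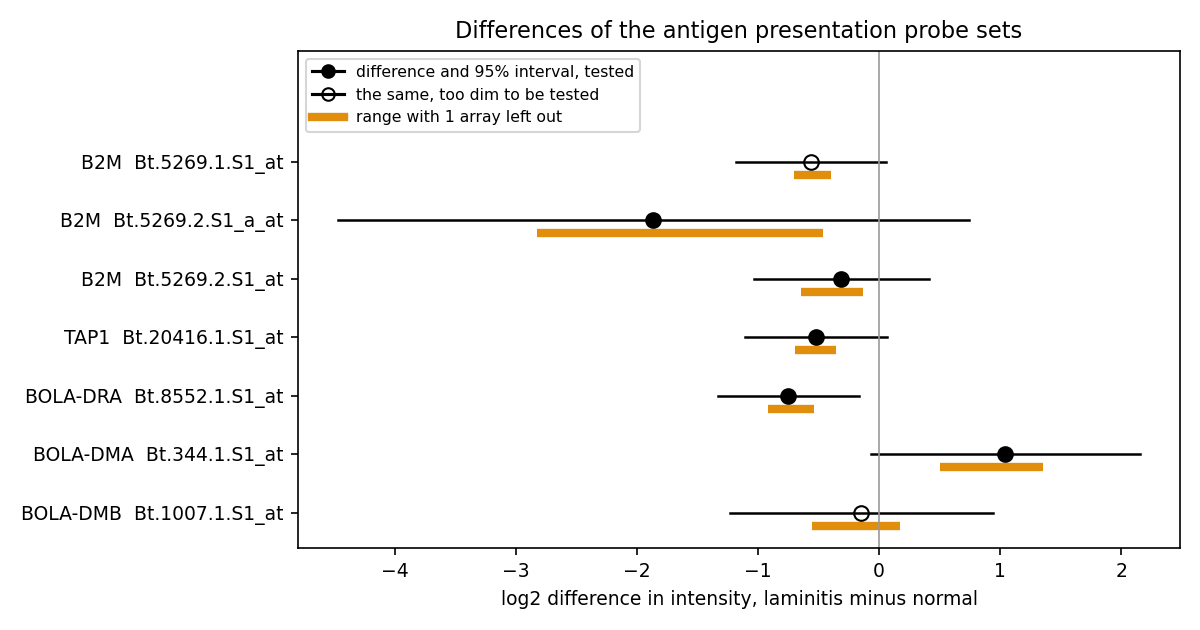
Log2 difference in intensity, laminitis minus normal, for each member probe set, with its 95% interval from limma (black line) and the range when 1 array was left out (orange bar); open circles were too dim to be tested. Of the 7 intervals, that of BOLA-DRA (-1.33 to -0.17) does not cross 0, with no adjustment for the number of probe sets.

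The members did not share a single profile over the 6 arrays. BOLA-DRA ran most closely with the dim B2M probe set (Pearson r 0.964 on log2 values) and with the _a_at one (0.871), all 3 being lowest on laminitis replicate 1. TAP1 and BOLA-DMA ran against each other (-0.835). BOLA-DRA and BOLA-DMA, both of the class II route, had r of -0.38. These values describe 6 arrays that also differ by group, so a shared group difference alone raises them.

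Genes whose profile over the 6 arrays was most like that of a member were taken from 6150 other named genes by Pearson r on log2 values. For BOLA-DRA they were HADH, a mitochondrial enzyme of fatty acid oxidation (r 0.985), and FARP1 (0.98), and 106 genes exceeded 0.9. TCEA1, a transcription elongation factor (0.997), and ATP6V0B, a subunit of the proton pump that acidifies endosomes (0.992), were closest to TAP1. For BOLA-DMA they were ARPC1A, a subunit of the actin-nucleating Arp2/3 complex (0.998), and the mismatch repair gene PMS1 (0.989). The B2M probe set of highest mean, the _at partner, was closest to ANKRD50 (0.989) and the adhesion molecule CADM1 (0.983). No gene of the antigen presentation lists was among these 8, which with so few picks says little. Genes above 0.9 numbered 90 for TAP1, 42 for BOLA-DMA and 27 for B2M. Being the highest of 6150 over only 6 arrays, these r describe the profiles and were not tested.

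Other class II chains on the array gave a mixed picture. Both tested probe sets of BOLA-DQB1 and the tested one of BOLA-DQA1 lay lower on all laminitis arrays, while those of BOLA-DQA2, BOLA-DQA5, BOLA-DQB, BOLA-DOA and BOLA-DRB3 did not separate the groups. Besides the members, 19 probe sets for 11 genes had a single bovine MHC symbol, 17 of class II and 2 of class I; this set was drawn up after the values were seen. Of these, 12 were tested and 0 passed in limma. In 3 of the 12 all laminitis arrays lay below all normal arrays, beside 8.92% of all tested probe sets, and in 0 they lay above, beside 7.89%. The suffixes _s_at and _x_at mark probes that several related transcripts can bind, so near-identical DQ or DRB copies cannot be told apart.

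BOLA-DQB1, the beta chain of DQ, had the widest gap. Its _s_at probe set read 474, 493 and 339 in laminitis replicates 1, 3 and 4, against 1955, 1514 and 683 in normal replicates 2, 3 and 4. The groups did not overlap, although normal replicate 4 was well under the other normal arrays. The log2 difference was -1.56 ± 0.41 (SE), with a limma adjusted p of 0.345, or -2.00 without normal replicate 4 and -1.24 without normal replicate 2. The other tested BOLA-DQB1 probe set also kept the groups apart, at 155, 179 and 180.5 in laminitis against 293, 254 and 233 in normal tissue (log2 difference -0.60 ± 0.19, limma adjusted p 0.445). The remaining 3 BOLA-DQB1 probe sets were too dim to be tested, with log2 differences of 0.39, -0.57 and -0.52.

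BOLA-DQA1, the alpha chain of DQ, read 158, 156 and 117 by its _x_at probe set in laminitis replicates 1, 3 and 4, against 242, 263 and 169 in normal replicates 2, 3 and 4. Here too the groups were apart, and the log2 difference was -0.64 ± 0.25 (SE, limma adjusted p 0.494). A dimmer BOLA-DQA1 probe set, not tested, gave -1.33 ± 0.49. BOLA-DQA2 gave -0.19, 0.017 and 0.012 by its 3 probe sets, and BOLA-DQA5 gave 0.27 ± 0.23. BOLA-DQB had -0.39 ± 0.67, and BOLA-DOA, a chain of the DO molecule that restrains DM, had -0.23 ± 0.22.

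BOLA-DRB3, the beta chain that pairs with DRA in cattle, read 880.0, 893 and 948 by its _s_at probe set in laminitis, against 713, 1108 and 855 in normal tissue. The laminitis values sat inside the normal range, with a log2 difference of 0.048 ± 0.22 (SE, limma adjusted p 0.957) that became -0.13 after quantile normalization. A dim DRB3 probe set, not tested, gave -0.74 ± 0.46. The class I probe sets of BOLA and BOLA-N had -0.095 ± 0.60 and 0.044 ± 0.33, both with overlapping groups.

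**Figure D3:**
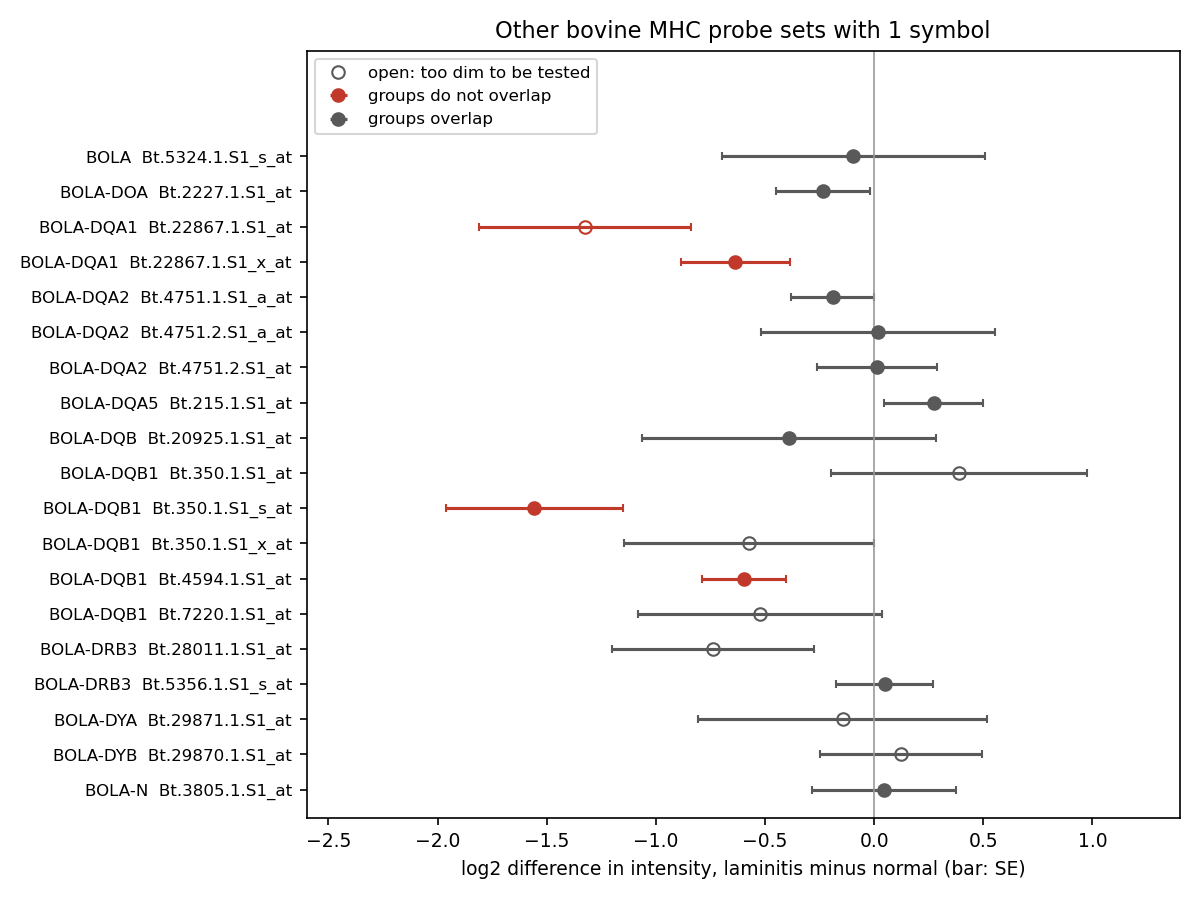
Log2 difference in intensity, laminitis minus normal, with its SE from limma, for the 19 other probe sets with a single bovine MHC symbol; open circles were too dim to be tested, and red marks groups that do not overlap. The red points, all left of 0, belong to BOLA-DQA1 and BOLA-DQB1, down to -1.56.

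The wider pathway was described by lists of genes by role, in which the tested probe set of highest mean stood for its gene. Of the class I processing and presentation list, 12 of 23 genes were tested, 9 with a positive and 3 with a negative log2 difference, and 0 passed over all probe sets. The list's median was 0.29, beside -0.056 over all tested probe sets, and 56.3% of all tested probe sets were negative. In 3 of the 12 all laminitis arrays lay above all normal arrays, beside 7.89% of all tested probe sets, and in 0 below, beside 8.92%. The 4 genes of smallest p did not pass in limma.

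PSME2, a subunit of the interferon-inducible activator of the proteasome, read 1858, 739 and 317 in laminitis replicates 1, 3 and 4, against 211, 199 and 251 in normal replicates 2, 3 and 4. No laminitis value lay inside the normal range, and the laminitis arrays differed widely among themselves. The log2 difference was 1.79 ± 0.59 (SE, limma adjusted p 0.45), or 1.14 without laminitis replicate 1 and 2.42 without laminitis replicate 4. PSME1, the partner subunit, had 0.21 ± 0.25, and the immunoproteasome subunits PSMB8 and PSMB10 had 0.098 ± 0.45 and 0.42 ± 0.49, all with overlapping groups.

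Among chaperones of the endoplasmic reticulum, HSPA5 had mean intensities of 12872 in laminitis and 7053 in normal tissue, without overlap (log2 difference 0.84 ± 0.31, limma adjusted p 0.488). After quantile normalization that difference was 0.46, and a dimmer HSPA5 probe set gave 0.57 ± 0.76. CANX, calnexin, which holds new class I heavy chains, had 0.65 ± 0.35, while another CANX probe set gave 0.0045 ± 0.46. FCGRT, the heavy chain of the neonatal Fc receptor and another partner of B2M, had -0.54 ± 0.27 (limma adjusted p 0.563). MR1, a B2M partner that presents vitamin metabolites, had 0.27 ± 0.19 by its brighter and -0.77 ± 0.50 by its dimmer probe set.

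Of the class II chain and peptide loading list, 17 of 36 genes were tested, 9 positive and 8 negative, with a median of 0.017 and 0 past the test. In 3 of the 17 all laminitis arrays lay above all normal arrays and in 1 below, beside the same 7.89% and 8.92%. BOLA-DQB1, lower by both tested probe sets (-1.56 and -0.60), was not on this list and enters neither the counts nor the median. The members BOLA-DRA and BOLA-DMA were not on it either. IFI30, a thiol reductase that unfolds antigens in lysosomes, read 118, 156 and 137 in laminitis replicates 1, 3 and 4, against 95.6, 73.3 and 35.1 in normal replicates 2, 3 and 4. The groups did not overlap (log2 difference 1.12 ± 0.38, limma adjusted p 0.456), and 64 added to every intensity brought the difference to 0.63. The cathepsins CTSV and CTSD had 0.43 ± 0.20 and 0.84 ± 0.48, of which CTSV kept the groups apart. The fourth gene of the rule was BOLA-DQA1, given above.

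Cathepsin B showed how probe sets of a gene can part, and it is named here after its values were seen. A probe set that is not its brightest read 92.1, 98.1 and 132 in laminitis replicates 1, 3 and 4, against 212, 189 and 216 in normal replicates 2, 3 and 4. The groups were well apart, with a log2 difference of -0.96 ± 0.21 (SE, limma adjusted p 0.295), the smallest p in these lists. The brightest CTSB probe set gave -0.24 ± 0.24 and another gave -0.10 ± 0.23, both with overlapping groups.

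Of the list of transcription factors and interferon-gamma signalling, 12 of 27 genes were tested, 6 positive and 6 negative. The median was -0.0077, and 0 passed the test. In 1 of the 12 all laminitis arrays lay above all normal arrays and in 1 below. Over all tested probe sets these shares were 7.89% and 8.92%. IRF2, a factor that competes with IRF1 at interferon-response sites, had -0.53 ± 0.20 (limma adjusted p 0.494) without overlap, but 0.33 ± 0.27 by another probe set. CREB1, which binds the class II promoter module, had 0.35 ± 0.21, and NFYC, a subunit of the Y box factor, had -0.44 ± 0.28. IDO1, a tryptophan-degrading enzyme induced by interferon-gamma, had 0.49 ± 0.35, or 0.096 without normal replicate 2. RFX5, the X box subunit that class II promoters require, had 0.026 ± 0.23 by its brighter probe set.

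**Figure D4:**
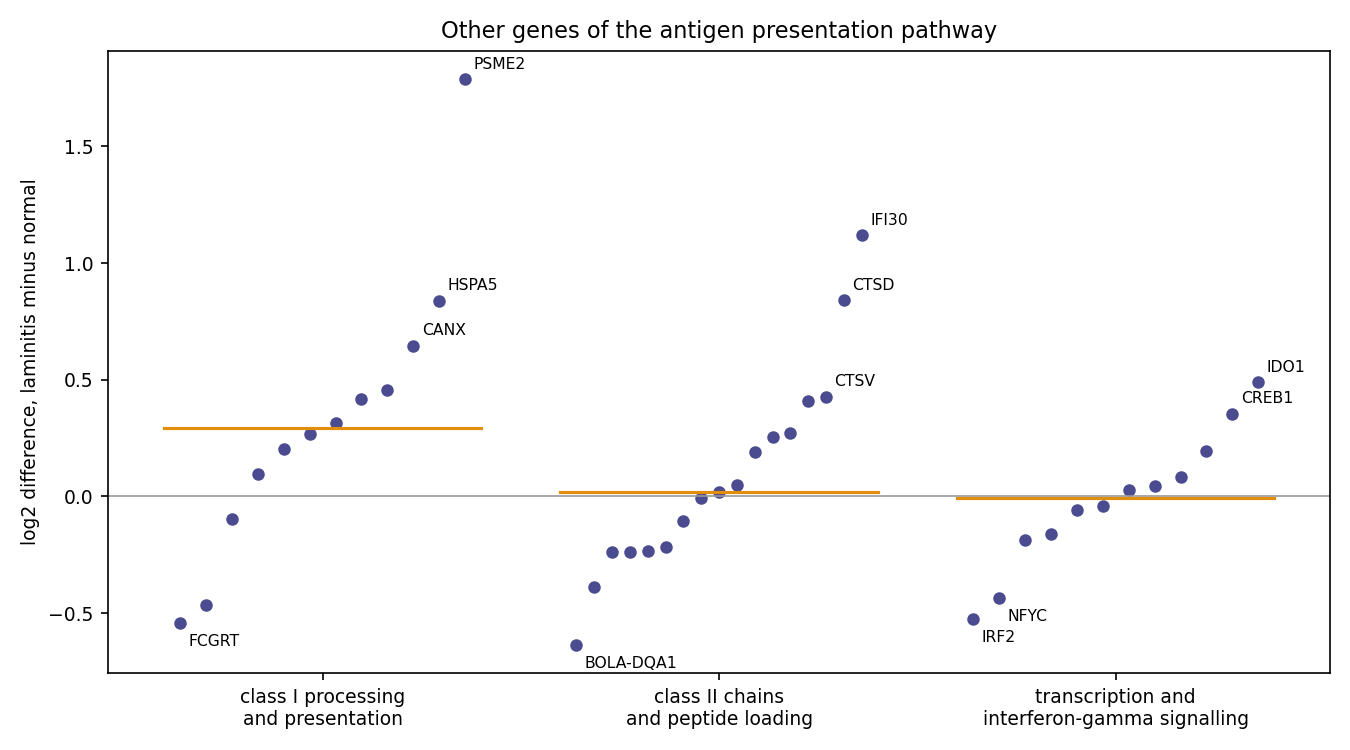
Log2 difference in intensity, laminitis minus normal, of each tested gene in the 3 pathway lists, ordered by size within a list, with the list median as an orange line and the 4 genes of smallest p named. The medians are 0.29, 0.017 and -0.0077, and PSME2 lies furthest from 0 at 1.79.

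In bulk tissue, fewer cells of a type and less RNA per cell cannot be told apart. Markers of other cell types were therefore summed on each array, with the probe set of highest mean for each gene, beside BOLA-DRA and the DQ chains. The B cell sum, over 4 measured genes, ran from 216 to 271 in laminitis and from 273 to 314 in normal tissue, with 2 of the 4, BLK and CD79A, never above the array median. The T and NK cell sum, over 15 genes, ran from 1881 to 2140 in laminitis and from 2176 to 2454 in normal tissue, with CD28, CD5, CD8B and NKG7 never above the median. Both sums lay lower on all laminitis arrays, but their genes did not move as a block. In the T and NK cell list CD2 (log2 difference -0.98 ± 0.41) and CD247 (-0.81 ± 0.35) lay lower on all laminitis arrays. CD4 (0.30 ± 0.22) and CD8B (0.48 ± 0.22) lay higher. In the B cell list 0 of the 4 genes separated the groups. Beside these, 8.92% of all tested probe sets lay lower on all laminitis arrays and 7.89% higher. The part of these markers in the difference of BOLA-DRA was not tested.

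Sums for the other leukocyte lists overlapped between the groups. Macrophage and dendritic cell genes, 12 measured, summed to between 1313 and 1607 in laminitis and between 1381 and 1604 in normal tissue, with AIF1 and ITGAM never above the median. Within that list CYBB (2.20 ± 0.44, above the median on 4 arrays) lay higher on all laminitis arrays. CSF1R (-0.74 ± 0.33, above the median on 1 array and so not tested) lay lower, so the list did not move as a block. Pan-leukocyte genes, 7 measured, summed to between 778 and 1039 in laminitis and between 828 and 972 in normal tissue, with CD53 never above the median. Among them CORO1A (1.76 ± 0.70, above the median on 1 array) and CD52 (0.36 ± 0.21) lay higher on all laminitis arrays. CD48 (-1.11 ± 0.70) lay lower on all of them. Endothelial genes, 7 measured, ran from 517 to 778 in laminitis and from 587 to 800.0 in normal tissue, with TEK, TIE1 and VWF never above the median. Keratinocyte genes, 9 measured, ran from 2118 to 3459 in laminitis and from 1805 to 2621 in normal tissue, with PERP never above the median. Fibroblast genes, 8 measured, ran from 8667 to 30119 in laminitis and from 8952 to 31077 in normal tissue, most of that range being set by replicate 4 of each group. Of these genes PDGFRA (0.35 ± 0.23) lay higher on all laminitis arrays and DCN (-1.61 ± 0.45) lower. Over all tested probe sets, 7.89% lay higher on all laminitis arrays and 8.92% lower.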

How the data were processed

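Transcript levels in 3 laminitis and 3 normal samples were deposited as linear intensities, 1 value for each probe set on each array. Computed from these values, the mean after trimming 2% at each end was 150.02 to 150.03 on every array. The submitters' processing notes name GCRMA, but a common trimmed mean and linear values well under 1 do not look like its output, so the exact step is open and the values were used as deposited. Detection calls were not used here. Samples were grouped by title.

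Control probe sets (112) were left out. Gene symbols came from GEO's platform annotation: 13292 probe sets had 1 symbol, 86 several and 10638 none. Log2 values without an offset were fitted in limma 3.58.1 under R 4.3.3 (lmFit and eBayes, two-sided, Benjamini-Hochberg over 12519 tested probe sets). Members below the filter were fitted with all probe sets and given no adjusted p. Folds are of geometric means. The members and lists were chosen with earlier results of these data known. Every member probe set is named, the 4 genes of smallest p per list, and the 2 genes most correlated with each member, while BOLA-DQB1, the other MHC probe sets, CTSB and several relatives of named genes were named after their values were seen. The fit was tested on simulated data. A planned search of promoter motifs was not run, since no sequence was used here. Alternatives were 2 other filters, 2 other normalizations, 2 offsets, an intensity trend, array weights, the replicate number as a block, and each array left out.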

Additional observations from a re-analysis of the deposited data

How the results depend on the processing

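Over 9 alternatives and 6 fits with 1 array left out, no member probe set and no list gene passed in limma, and the lowest adjusted p of a member was 0.265 (BOLA-DRA). The number of probe sets called higher over the whole array was 0 as reported, 6 of 8468 tested when all 6 arrays had to exceed the median, 4 with an intensity trend and robust prior, and 0 to 2 with 1 array left out; 0 were called lower in all of these. BOLA-DMB changed sign, to 0.17 with the replicate block, and ranged from -0.55 to 0.17 with 1 array left out; the other 6 member probe sets kept their direction. The median over the tested members was -0.35 with 64 added before log2 and ranged from -0.69 to -0.36 with 1 array left out. At each of these values it was the difference of TAP1, the middle one of the tested members. Numbers 3 and 4 occur in both groups, and the deviations of same-numbered arrays were nearly uncorrelated across probe sets (r -0.017 and -0.031). The fibroblast sum, however, was highest on replicate 4 of both groups (30119 in laminitis and 31077 in normal tissue). So few arrays cannot settle whether the numbers mark pairs, and they were not taken as pairs. Laminitis replicate 1 and normal replicate 2 have no same-numbered array in the other group. The replicate block therefore took its differences from replicates 3 and 4 alone, the change of sign of BOLA-DMB included. That fit called 0 probe sets, which with so few arrays says little, and gave BOLA-DMA 0.54. Sizes of dim probe sets depend on the offset: the dim B2M probe set had -0.56 as reported and -0.29 with 64 added.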
